A study of Mus musculus with 6 samples.

Results

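The genes described here are those of insulin-like growth factor 1 (Igf1), the receptors Igf1r and Igf2r, the binding proteins Igfbp2, Igfbp3, Igfbp4, Igfbp5, Igfbp6 and Igfbp7, and Igf2bp2, a protein that binds the messenger RNA of Igf2. They were chosen by name, with earlier results of these data known, and they are 10 of the 52369 genes in the deposited expression table. All 10 had a mean of at least 1 FPKM (fragments per kilobase of gene, scaled to the depth of the library) and so were among the 14788 genes tested. They were followed in regenerating muscle with and without gain of function of Linc-smad7, a long non-coding RNA.

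IGF1 binds IGF1R, a receptor tyrosine kinase that signals through IRS adaptors, PI3K and AKT to mTOR and through RAS to the MAP kinases. In injured muscle IGF1 comes from macrophages, fibro-adipogenic progenitors and muscle cells, and it promotes myoblast proliferation, differentiation and fibre growth. IGF2R takes IGF2 up for degradation without such a kinase signal, and the IGF-binding proteins hold the ligands outside the cell and can limit or prolong their action.

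The L7 group is 3 libraries of C57BL/6 mouse tibialis anterior, a shin muscle, with Linc-smad7 gain of function, and the control group is 3 libraries from the same muscle without it. Both groups carried the same injury, made at 5 weeks of age with 50 µl of 10 µM cardiotoxin, which kills muscle fibres while sparing their stem cells. Both also carried 6.25 µg of pcDNA3.1 plasmid per injection, given with an in vivo transfection reagent on several days, and the muscle was taken on day 7, at an age the labels give as 6 weeks. What the control plasmid held is not described in the labels, and nothing in them says whether each library came from an animal of its own. The p-values therefore measure only the spread between these samples, part of which may be technical. Each library is a piece of whole muscle, so fewer cells of a type and less RNA per cell cannot be told apart in any value below.

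The libraries held 19420012 to 24663153 reads in genes, and the 10 genes had 128 to 18953 reads each per library. L7 replicate 3 stood apart, with a correlation over genes of 0.920 to 0.951 with the other 5 libraries, against 0.979 to 0.989 among those. Its 10 most abundant genes took 14.1% of its reads, against 6.57% to 8.40% elsewhere. Rescaling by the median of ratios to a typical library divides its FPKM values by 0.774 and those of the others by 1.03 to 1.10. Rescaled values are therefore given beside the deposited ones. Y-linked reads were present in L7 replicate 1 and in control replicates 1 and 3 (3185 to 4184 reads) and at most 2 in the other libraries, so each group held tissue of at least 2 animals. Gm20544, a transcript annotated next to Smad7 and named after its values were seen, was at 10.7, 15.7 and 5.47 FPKM in L7 libraries and at 1.87, 2.54 and 1.70 FPKM in control libraries. No row of the table carries the name Linc-smad7.

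The series title says that Linc-smad7 sponges miR-125b, a microRNA. Its mature sequence is shown because the 3′ untranslated regions of the 10 genes were searched for its site. The capitals mark the seed, bases 2 to 8. The sequence is credited to RefSeq on GRCm38.p6, where Mir125b-1 lies on chromosome 9 and Mir125b-2 on chromosome 16.
miR-125b-5p: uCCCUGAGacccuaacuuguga
The site searched was CTCAGGG, the reverse complement of the seed in DNA letters, on the sense strand of the longest annotated 3′ untranslated region of each gene. It was found in 0 of the 10 genes, including the long regions of Igf1r (7267 bases), Igf1 (6308 bases) and Igfbp5 (4445 bases). Of all 20904 genes with such a region 13.1% held the site, and of the 12718 tested among them 15.6% did. Among other genes of the pathway the site was present in Foxo1, Foxo3, Grb2, Grb10, Hras, Pik3cb, Stat5b and Stc1, for example. A match of these letters is a description of the sequence, and a missing match says only that they do not occur in that region.

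The question for the 10 genes was whether they differed between L7 and control muscle on day 7. No IGF gene separated the L7 libraries from the control libraries. The differences farthest from 0 were those of Igf2bp2, at -0.36 on the log2 scale (L7 minus control), and Igfbp2, at 0.30, and both lay within the spread between libraries. In limma on log2(FPKM + 1), 0 of the 10 passed at an adjusted p under 0.05, where 0% of all 14788 genes did. At an unadjusted p under 0.05 the count was also 0 of 10, against 5.9% of all genes. The authors' deposited table marked 0 of the 10, against 1.13% of the genes it tested. All 10 genes had overlapping groups, both on FPKM as deposited, where 19.2% of all genes were free of overlap, and on rescaled FPKM, where 18.3% were. The median log2 difference, L7 minus control, was -0.07 over the 10 genes and -0.15 over all genes tested. After rescaling these medians were 0.11 and -0.0029. The sign counts also turned with the scale, with 4 genes higher and 6 lower in L7 on FPKM as deposited and 7 higher and 3 lower on rescaled FPKM. A p that misses the threshold does not show that the values were alike, so the interval of each difference is given.

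**Figure D1:**
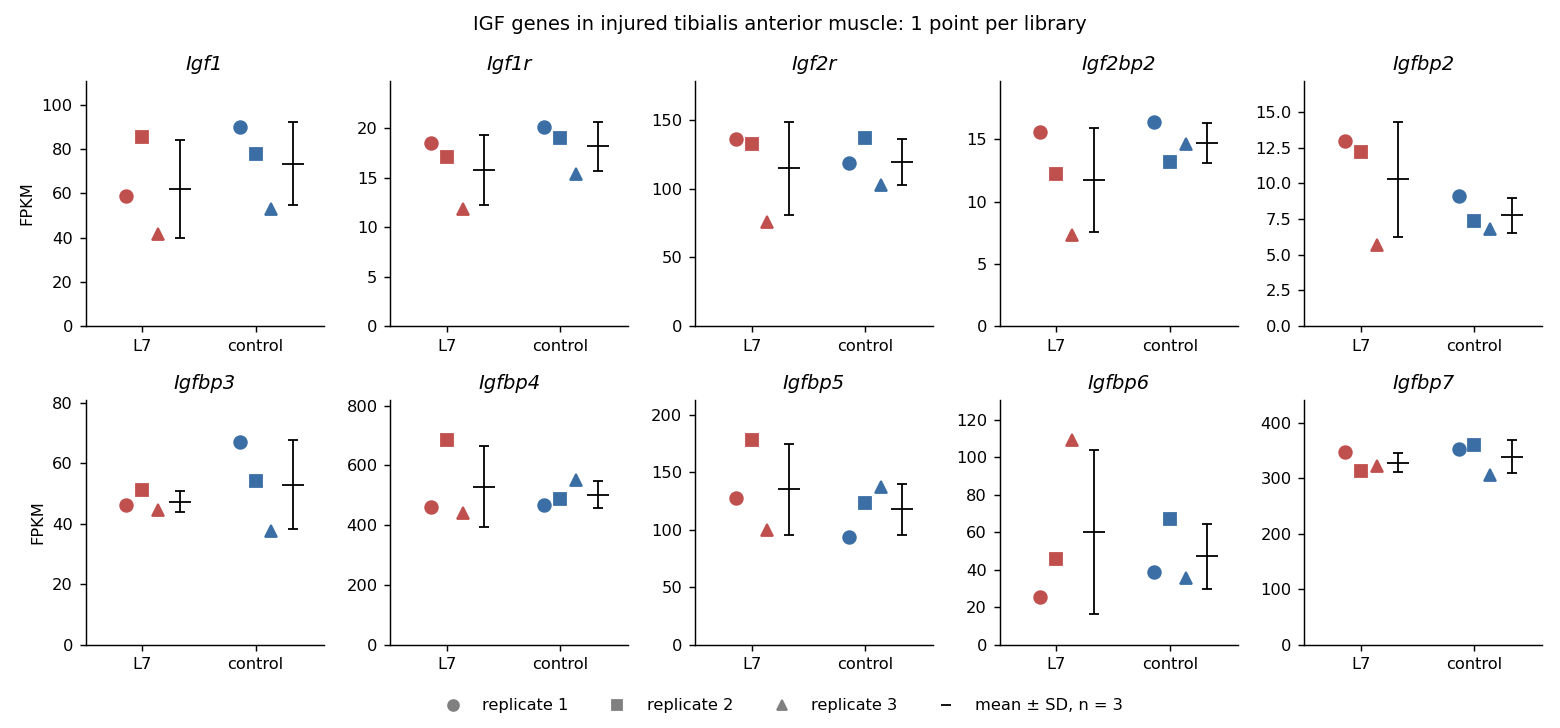
FPKM of each of the 10 IGF genes in every library, with the 3 L7 libraries (red) left of the 3 control libraries (blue). Each symbol is 1 library, its shape gives the replicate number, and the bar beside each group is its mean with 1 SD. The groups overlap in every panel, and L7 replicate 3 is the lowest library in 6 of the 10.

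Igf1 (chr10:87858265-87937042, plus strand, mm10), the ligand, was at 59.0, 85.7 and 41.4 FPKM in L7 libraries and at 89.9, 77.7 and 52.9 FPKM in control libraries. The lowest values of both groups came from replicate 3, and the groups overlapped over most of their range. L7 minus control came to -0.27 ± 0.30 (SE), with a 95% interval from -0.97 to 0.44 and a limma adjusted p of 0.661. In linear terms, for FPKM + 1, that interval runs from 0.51 to 1.35 times the control level. After rescaling Igf1 was at 56.9, 83.2 and 53.4 FPKM in L7 libraries and at 81.8, 73.6 and 51.5 FPKM in control libraries, and the difference shrank to -0.10 ± 0.24 (SE). Macrophage markers were the 8 genes Adgre1, Csf1r, Cd68, Mrc1, Cd163, Lyz2, C1qa and C1qb. On FPKM as deposited 63.2% of all genes tested were lowest in L7 replicate 3, and these markers had their lowest sum there. Their summed FPKM was 4230, 3470 and 2100 in L7 libraries and 3170, 2860 and 4050 in control libraries, all 8 were detected, and 2 were higher and 6 lower in L7. On rescaled FPKM this tally reversed, with 6 higher and 2 lower. The share of these cells in the level of Igf1 was not tested.

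Igf1r (chr7:67952827-68233668, plus strand), the signalling receptor, was at 18.5, 17.1 and 11.8 FPKM in L7 libraries and at 20.1, 19.0 and 15.4 FPKM in control libraries. L7 replicate 3 was the lowest, and the other L7 libraries lay within the control range. Its log2 difference was -0.21 ± 0.20 (SE), with an interval from -0.68 to 0.26 and a limma adjusted p of 0.622. Rescaling brought all 6 libraries to between 15.0 and 18.3 FPKM, the narrowest range of the 10 genes, a ratio of 1.22 between the highest and the lowest.

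Igf2r (chr17:12682406-12769664, minus strand), the uptake receptor for IGF2, was at 136, 133 and 75.9 FPKM in L7 libraries and at 119, 137 and 103 FPKM in control libraries. L7 replicate 3 lay below the control range, and the other L7 values sat near its top. L7 minus control was -0.09 ± 0.25 (SE), with an interval from -0.69 to 0.50 and a limma adjusted p of 0.853. Its direction depended on the scale, since the rescaled difference was 0.08 ± 0.17 (SE). The FPKM of Igf2r was 7.38, 7.83 and 6.43 times that of Igf1r in L7 libraries and 5.92, 7.20 and 6.68 times in control libraries, and these ratios overlapped.

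Among the binding proteins Igfbp4 and Igfbp7 were the most abundant in every library. Igfbp4 (chr11:99041244-99054392, plus strand), a soluble binding protein that the protease PAPP-A cleaves, was at 462, 684 and 439 FPKM in L7 libraries and at 467, 487 and 552 FPKM in control libraries. L7 replicate 2 was the highest library by a wide margin and the other L7 libraries were the lowest, so the L7 values lay on both sides of the control values. The log2 difference was 0.05 ± 0.22 (SE), with an interval from -0.47 to 0.56 and a limma adjusted p of 0.914. After rescaling it was 0.22 ± 0.20 (SE), with an unadjusted p of 0.305 in limma.

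Igfbp7 (chr5:77349240-77408041, minus strand), a relative of the family that binds IGFs weakly and is known from vessels and connective tissue, was at 348, 314 and 323 FPKM in L7 libraries and at 352, 360 and 306 FPKM in control libraries. It was the steadiest gene of the 10 on FPKM as deposited, with a highest value 1.18 times the lowest. Its log2 difference was -0.05 ± 0.16 (SE), with an interval from -0.41 to 0.32 and a limma adjusted p of 0.886, and it was 0.13 ± 0.17 (SE) after rescaling.

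Igfbp5 (chr1:72857932-72874884, minus strand), which differentiating myoblasts secrete and which binds to the matrix, was at 128, 178 and 99.7 FPKM in L7 libraries and at 93.4, 123 and 137 FPKM in control libraries. L7 replicate 2 was the highest and control replicate 1 the lowest, and the remaining values interleaved. It differed on the log2 scale by 0.17 ± 0.25 (SE), with an interval from -0.41 to 0.76 and a limma adjusted p of 0.725. After rescaling it was 0.35 ± 0.22 (SE), with an unadjusted p of 0.153 in limma. With array weights, which let limma give a variable library less weight, the difference was 0.46 ± 0.19 (SE) with an unadjusted p of 0.0404 in limma and an adjusted p of 0.439. Satellite cell and myoblast markers (Pax7, Myf5, Myod1, Myog, Cdh15 and Itga7, all 6 detected) summed to 395, 397 and 247 FPKM in L7 libraries and to 417, 337 and 404 FPKM in control libraries, with 1 higher and 5 lower, and 3 and 3 on rescaled FPKM. Their part in the level of Igfbp5 was not tested.

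Igfbp3 (chr11:7206086-7213923, minus strand), the main carrier of IGFs in blood, was at 46.2, 51.3 and 44.6 FPKM in L7 libraries and at 67.0, 54.2 and 37.7 FPKM in control libraries. All 3 L7 libraries lay inside the control range. In log2 terms L7 minus control came to -0.12 ± 0.22 (SE), with an interval from -0.63 to 0.39 and a limma adjusted p of 0.770. The sign turned with rescaling, to 0.05 ± 0.21 (SE).

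Igfbp6 (chr15:102144362-102149511, plus strand), which prefers IGF2 to IGF1, was the most variable of the 10 genes, at 25.5, 45.8 and 109 FPKM in L7 libraries and at 38.7, 67.1 and 35.3 FPKM in control libraries. The highest and the lowest libraries were both L7, and the highest was 4.27 times the lowest. It was the only gene of the 10 with its highest FPKM in L7 replicate 3, where 17.6% of all genes tested peaked. The log2 difference was 0.16 ± 0.50 (SE), with an interval from -1.02 to 1.33 and a limma adjusted p of 0.874, and it was 0.33 ± 0.61 (SE) after rescaling. Tendon markers (Tnmd, Scx, Fmod, Mkx and Thbs4, all 5 detected) summed to 515, 794 and 567 FPKM in L7 libraries and to 704, 715 and 568 FPKM in control libraries, and so did not peak in L7 replicate 3. Adult fast fibre markers did, at 32200, 34800 and 94900 FPKM in L7 libraries and 21400, 29800 and 28000 FPKM in control libraries, with all 10 detected and higher in L7. Of these 10, 4 were free of overlap (40%, against 19.2% of all genes) and 0 had an unadjusted limma p under 0.05. Their median log2 difference was 0.99, and 0.40 without L7 replicate 3 on rescaled FPKM. The adipocyte marker sum also peaked in L7 replicate 3, at 77.6 FPKM, of which Fabp4 was 66.9 FPKM. Fabp4 and Cfd peaked there, but Adipoq, Plin1 and Cidec peaked in L7 replicate 1 and Lep in L7 replicate 2. Of the fibro-adipogenic progenitor markers, Pi16, Dcn and Cd34 peaked in L7 replicate 3, at 31.0, 304 and 67.8 FPKM. Pdgfra, Ly6a and Col3a1 were lowest in it, and Dpp4 and Lum were neither. The part of fibre content or of other cells in the level of Igfbp6 was not tested.

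Igfbp2 (chr1:72824503-72852474, plus strand), a soluble binding protein with a site for integrins, was the least abundant of the 10 genes, at 13.0, 12.2 and 5.66 FPKM in L7 libraries and at 9.14, 7.33 and 6.80 FPKM in control libraries. L7 replicates 1 and 2 were the highest libraries and L7 replicate 3 was the lowest. These values rest on 307, 270 and 128 reads in L7 libraries and on 204, 152 and 179 reads in control libraries. L7 minus control came to 0.30 ± 0.30 (SE), with an interval from -0.40 to 1.00 and a limma adjusted p of 0.630. After rescaling Igfbp2 was at 12.5, 11.8 and 7.31 FPKM in L7 libraries and at 8.32, 6.94 and 6.61 FPKM in control libraries, with a log2 difference of 0.45 ± 0.21 (SE) and an unadjusted limma p of 0.0696. The authors' deposited table gave mean normalised reads of 242 in L7 and 167 in control, a 1.45-fold level with p = 0.0685 and an adjusted p of 1.

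Igf2bp2 (chr16:22059009-22163299, minus strand), which binds the messenger RNA of Igf2 and of other growth genes, was at 15.6, 12.2 and 7.32 FPKM in L7 libraries and at 16.4, 13.2 and 14.6 FPKM in control libraries. L7 replicates 2 and 3 lay below every control library, and L7 replicate 1 lay within their range. L7 minus control was -0.36 ± 0.26 (SE), with an interval from -0.96 to 0.25 and a limma adjusted p of 0.580. This was the lowest unadjusted p of the 10 genes, 0.206 in limma. After rescaling the log2 difference was -0.20 ± 0.18 (SE).

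Because L7 replicate 3 stood apart, each difference was also taken without it, on rescaled FPKM. This comparison was chosen after the data had been seen, and it sets 2 L7 libraries against 3 control libraries. Igfbp2 then had a log2 difference of 0.67 ± 0.12 (SE), with an unadjusted p of 0.00157 in limma and an adjusted p of 0.756. It was the only one of the 10 genes with an unadjusted p under 0.05, against 6.38% of all genes in that fit. The log2 differences of Igf2bp2, at -0.05 ± 0.13 (SE), Igf1, at 0.02 ± 0.25 (SE), and Igf1r, at 0.0042 ± 0.12 (SE), were then closer to 0, and that of Igf2r was 0.21 ± 0.13 (SE). The difference of Igfbp5 was 0.40 ± 0.23 (SE) with an unadjusted limma p of 0.130, and that of Igfbp6 turned to -0.36 ± 0.35 (SE). With array weights, where L7 replicate 3 had a weight of 0.105 and the others 0.775 to 2.10, 2 of the 10 genes, Igfbp2 and Igfbp5, had an unadjusted p under 0.05, against 10.9% of all genes. The limma adjusted p of Igfbp2 there was 0.350.

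**Figure D2:**
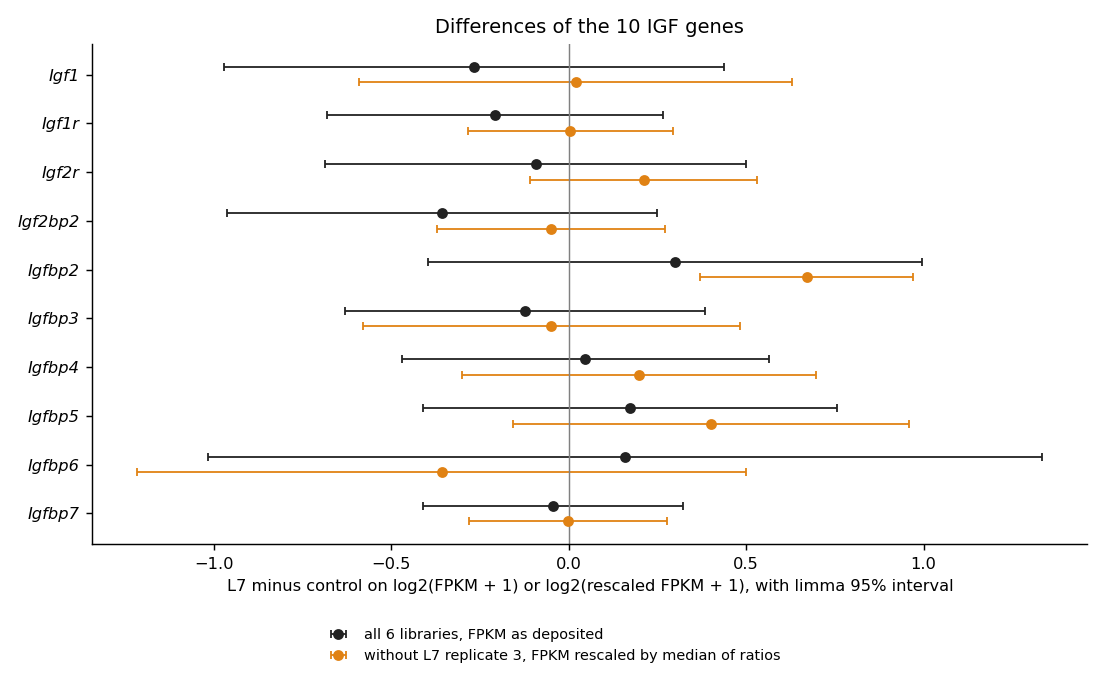
Log2 difference, L7 minus control, of the 10 IGF genes with its limma 95% interval, from all 6 libraries (black) and without L7 replicate 3 on rescaled FPKM (orange). Every black interval includes 0. Igfbp2 is the only gene whose orange interval does not, at 0.67, and Igfbp6 has the widest black interval, from -1.02 to 1.33.

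L7 replicate 3 was the lowest library for Igf1, Igf1r, Igf2r, Igfbp2, Igfbp4 and Igf2bp2, which is 6 of the 10 genes, against 63.2% of all genes tested. After rescaling it was the lowest for 2 of them, Igf2r and Igf2bp2, against 35.8% of all genes, and it was the highest for Igfbp6 and Igfbp7.

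**Figure D3:**
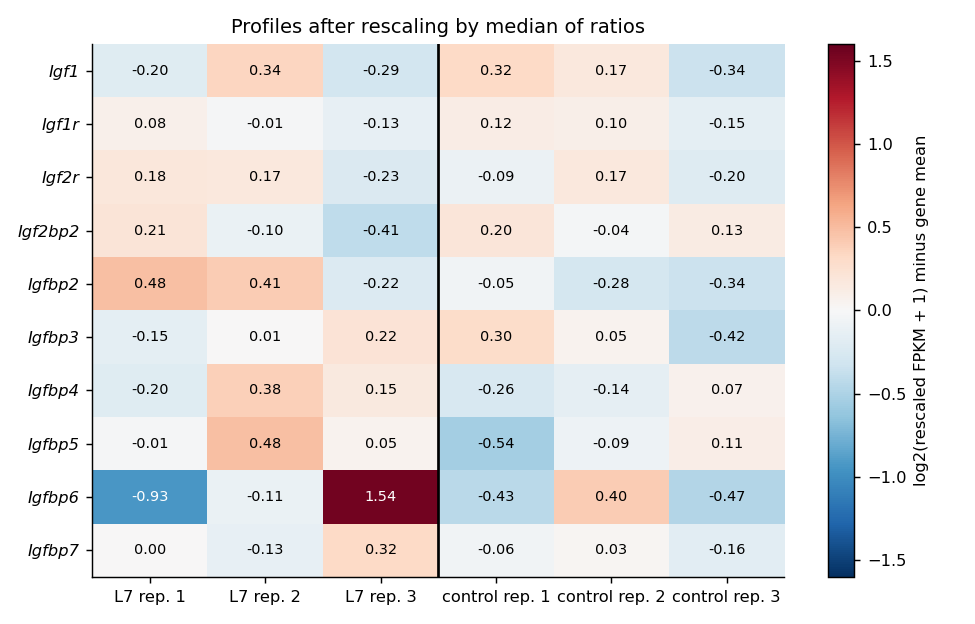
Rescaled log2(FPKM + 1) of each of the 10 IGF genes minus its mean over the 6 libraries, with L7 libraries left of the line and control libraries right of it. Red is above the mean of the gene and blue below it. Igfbp6 runs from -0.93 in L7 replicate 1 to 1.54 in L7 replicate 3, and Igfbp4 and Igfbp5 are both highest in L7 replicate 2 and lowest in control replicate 1.

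Over all 6 libraries the genes were ranked by their level per length, in FPKM. Igfbp4 averaged 515 ± 91.2 FPKM (SD, n = 6), Igfbp7 334 ± 22.3 FPKM and Igfbp5 127 ± 30.2 FPKM, and the ranges of these 3 genes did not meet. Igf2r averaged 117 ± 24.2 FPKM and could not be ordered against Igfbp5, which was the higher in 3 of 6 libraries. Igf1 (67.8 ± 19.5 FPKM) lay above Igfbp6 (53.6 ± 30.5 FPKM) in 5 of 6 libraries. Igfbp6 in turn lay above Igfbp3 (50.2 ± 10.0 FPKM) in 2 of 6, so these neighbours did not differ beyond their spread. Igf1r (17.0 ± 3.02 FPKM), Igf2bp2 (13.2 ± 3.27 FPKM) and Igfbp2 (9.01 ± 2.99 FPKM) kept that order within each of the 6 libraries, although their ranges across libraries met.

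The 6 binding proteins together came to 1020, 1280 and 1020 FPKM in L7 libraries and to 1030, 1100 and 1080 FPKM in control libraries. Igfbp4 made up 45.1%, 53.2% and 43.0% of that sum in L7 libraries and 45.5%, 44.3% and 51.3% in control libraries. Igfbp7 added 24.4% to 34.2%, and Igfbp2 no more than 1.27% in any library. Igfbp4 was thus the largest part in each of the 6 libraries. Igfbp6 varied most, at 2.50%, 3.56% and 10.7% in L7 libraries and 3.77%, 6.11% and 3.28% in control libraries. Binding proteins outnumbered Igf1 transcripts per length 17.3, 15.0 and 24.7 times in L7 libraries and 11.4, 14.2 and 20.3 times in control libraries. Against Igf1 and Igf2 together the ratio was 1.42, 1.65 and 1.69 in L7 libraries and 1.39, 1.48 and 2.65 in control libraries. Both ratios overlapped between the groups, with exact two-sided permutation p-values of 0.4 and 0.9.

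**Figure D4:**
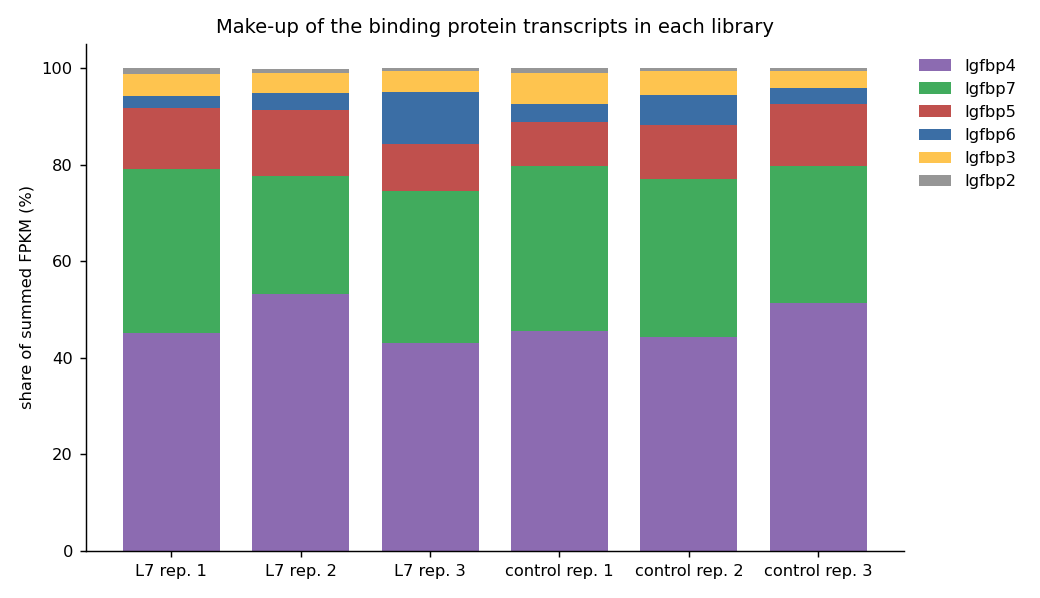
Share of each binding protein in their summed FPKM, 1 bar per library, with the 3 L7 libraries left of the 3 control libraries. Igfbp4 and Igfbp7 fill most of every bar, and the Igfbp6 segment is widest in L7 replicate 3, at 10.7%.

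Igf2, the second ligand and not one of the 10 genes, was far more abundant than Igf1, at 659, 694 and 563 FPKM in L7 libraries and 648, 667 and 352 FPKM in control libraries. Control replicate 3 was the lowest, and the groups overlapped. The log2 difference was 0.25 ± 0.28 (SE) with a limma adjusted p of 0.659. On rescaled FPKM each L7 value (634, 674 and 727) lay above each control value (590, 631 and 343). The ratio of Igf2 to Igf1 was 11.2, 8.10 and 13.6 in L7 libraries and 7.22, 8.58 and 6.66 in control libraries, with overlapping groups. Over the 7 ratios computed, none of which depends on how a library is scaled, the lowest exact two-sided permutation p was 0.2 (Benjamini-Hochberg 0.56). Both Igf2 over Igf1 and Insr over Igf1r gave it, and 3 libraries against 3 cannot go below 0.1. Insr, the insulin receptor, which can pair with IGF1R, was at 1.09, 1.15 and 1.57 times Igf1r in L7 libraries and at 0.822, 1.07 and 1.13 times in control libraries.

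The rest of the pathway was read from 6 lists with 62 genes, of which 54 were tested. None passed limma at an adjusted p under 0.05, 13 were higher and 41 lower in L7, and their median log2 difference was -0.14, against -0.15 over all genes. On rescaled FPKM 30 were higher and 24 lower, with a median of 0.03, against -0.0029 over all genes. At an unadjusted p under 0.05, 3 were lower and 0 higher, which is 5.56% against the 5.9% of all genes. Groups were free of overlap in 9 of the 54 (16.7%, against 19.2% of all genes), with L7 above control in 3 and below it in 6. On rescaled FPKM it was 12 of 54 (22.2%, against 18.3%), with L7 above in 8 and below in 4.

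Jak2 and Myc were among the genes under that unadjusted threshold. Jak2, the kinase by which the growth hormone receptor drives Igf1 transcription, was at 18.6, 18.6 and 11.6 FPKM in L7 libraries and 29.0, 22.4 and 27.6 FPKM in control libraries. Each L7 value lay below each control value. Its log2 difference was -0.69 ± 0.22 (SE) with a limma adjusted p of 0.580, and -0.44 without L7 replicate 3 on rescaled FPKM. Myc, a growth regulator whose messenger RNA the IGF2BP proteins bind, was at 19.6, 18.4 and 11.3 FPKM in L7 libraries and 25.8, 22.5 and 24.7 FPKM in control libraries. Its groups did not overlap either, and its log2 difference was -0.57 ± 0.22 (SE) with a limma adjusted p of 0.580. Without L7 replicate 3 on rescaled FPKM, 6 of the 54 genes (11.1%, against 6.38% of all genes) had an unadjusted limma p under 0.05. Among these, Jak2 and Myc were lower and Irs2, Rptor and Hras were higher in L7. None of the 54 passed adjustment there.

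Growth hormone input to Igf1 was read from 6 genes, of which 2 were higher and 4 lower, and 3 and 3 on rescaled FPKM. Socs2, an inhibitor of growth hormone signalling that the hormone itself induces, was at 18.7, 21.6 and 10.5 FPKM in L7 libraries and 31.3, 28.4 and 19.3 FPKM in control libraries. The groups met only between L7 replicate 2 and control replicate 3, and the log2 difference was -0.64 ± 0.29 (SE) with a limma adjusted p of 0.580.

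Binding protein proteases and their inhibitors were lower in 6 of 7 tested genes, with a median of -0.27, and none passed limma. On rescaled FPKM 4 of the 7 were lower and the median was -0.20, and without L7 replicate 3 on that scale it was -0.13. Stc1, a stanniocalcin, of the family that inhibits PAPP-A, was at 0.771, 1.06 and 0.479 FPKM in L7 libraries and 2.12, 1.47 and 1.04 FPKM in control libraries. L7 replicate 2 and control replicate 3 overlapped by a small margin, and the log2 difference was -0.52 ± 0.22 (SE) with a limma adjusted p of 0.580. The authors' deposited table marked Stc1, with p = 0.0337 and an adjusted p of 1. Adam12, a metalloprotease reported to cleave IGFBP3 and IGFBP5, was at 63.1, 64.1 and 22.7 FPKM in L7 libraries and 103, 91.7 and 45.7 FPKM in control libraries, a log2 difference of -0.73 ± 0.46 (SE, limma adjusted p 0.580). Replicate 3 was the lowest in both groups.

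Of the 26 receptor adaptors and PI3K-AKT-mTOR genes, 6 were higher and 20 lower, with a median of -0.13. The balance reversed on rescaled FPKM, with 16 higher and 10 lower and a median of 0.04, and the median was 0.09 without L7 replicate 3. Rictor, a subunit of mTOR complex 2, was at 2.87, 2.14 and 1.51 FPKM in L7 libraries and 3.61, 2.75 and 2.88 FPKM in control libraries, with overlapping groups. In the RAS-MAPK branch 2 of 9 genes were higher and 7 lower, and 5 and 4 on rescaled FPKM. Hras was at 70.4, 72.8 and 83.4 FPKM in L7 libraries and 67.1, 62.9 and 59.3 FPKM in control libraries, without overlap. Its log2 difference came to 0.25 ± 0.14 (SE), with a limma adjusted p of 0.580, and to 0.43 ± 0.19 (SE) on rescaled FPKM. Of the genes tied to Igf2bp2, Hmga2, a chromatin protein that activates Igf2bp2, was at 2.19, 1.43 and 0.428 FPKM in L7 libraries and 3.42, 1.70 and 1.43 FPKM in control libraries. Its groups overlapped, as did those of Insr, at 20.0, 19.5 and 18.6 FPKM in L7 libraries and 16.5, 20.4 and 17.3 FPKM in control libraries. Igfbp1 and Adam28 were at 0 reads in all 6 libraries.

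**Figure D5:**
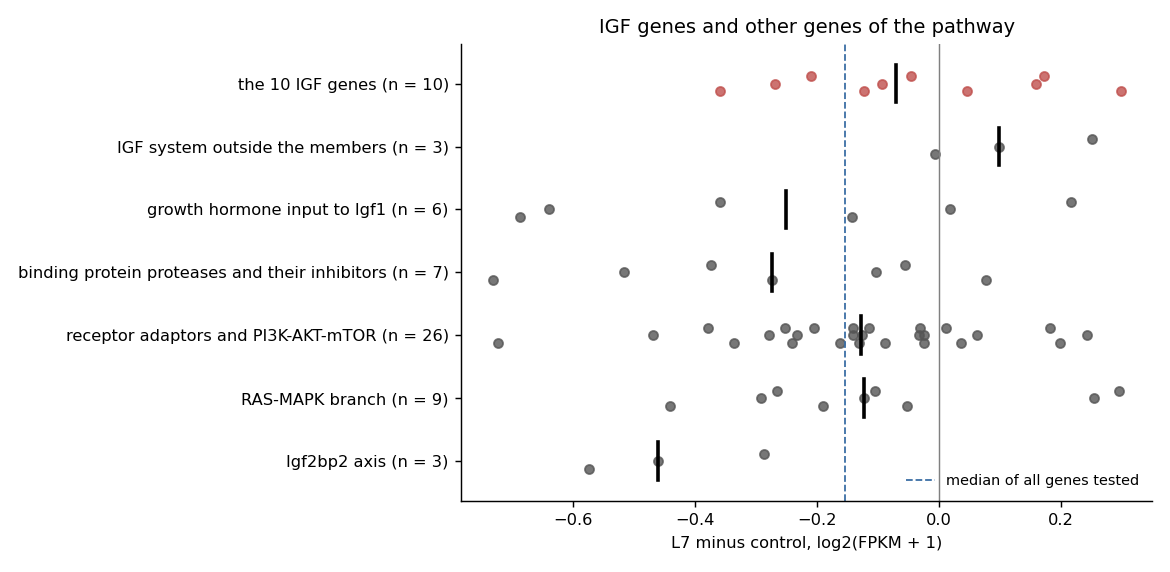
Log2 difference, L7 minus control, of the 10 IGF genes (red) and of the tested genes of 6 other lists of the pathway (grey), 1 point per gene, with the median of each list as a black bar. The dashed line is the median of all genes tested, -0.15. The 10 IGF genes lie between -0.36 and 0.30.

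Other cell types that the muscle could hold were checked by markers. Fibro-adipogenic progenitor markers, with Col3a1 the most abundant, summed to 5500 to 6580 FPKM in L7 libraries and 6090 to 7420 FPKM in control libraries, with 3 of 8 higher. On rescaled FPKM 6 of the 8 were higher, and without L7 replicate 3 on that scale 0 of 8. Ly6a was lower in L7, at 706, 657 and 513 FPKM against 1040, 783 and 1240 FPKM in control libraries, without overlap on either scale. It was the only 1 of these 8 free of overlap on FPKM as deposited (12.5%, against 19.2% of all genes). Its unadjusted limma p was 0.0232 and its adjusted p 0.580. Endothelial markers, led by Cdh5, summed to 209 to 221 FPKM in L7 libraries and 191 to 236 FPKM in control libraries. Pericyte and smooth muscle markers, led by Acta2, summed to 278 to 409 FPKM in L7 libraries and 302 to 588 FPKM in control libraries. The groups overlapped in each of these sums. Adipocyte markers were low, at 44.3 to 77.6 FPKM in L7 libraries and 38.1 to 43.3 FPKM in control libraries, nearly all of it Fabp4, with Lep, Plin1 and Cidec under 1 FPKM on average. Each L7 sum lay above each control sum, although Fabp4 itself overlapped, at 48.1, 38.5 and 66.9 FPKM in L7 libraries and 42.6, 40.5 and 34.4 FPKM in control libraries. Adipoq, the adipocyte hormone adiponectin, was at 3.20, 1.21 and 1.55 FPKM in L7 libraries and 0.261, 0.618 and 1.06 FPKM in control libraries, without overlap. Plin1, a lipid droplet protein, was at 1.44, 0.535 and 1.08 FPKM in L7 libraries and 0.0331, 0.107 and 0.225 FPKM in control libraries, also without overlap. Of all genes tested, 19.2% were free of overlap. Adipoq had 5 to 65 reads per library and Plin1 had 1 to 46. Of the 3 adipocyte markers tested, Adipoq and Cfd had unadjusted limma p-values of 0.0251 and 0.0357, both with an adjusted p of 0.580. An unadjusted p under 0.05 was found for 5.9% of all genes tested. The authors' deposited table marked Adipoq and Plin1, with p-values of 0.0105 and 0.000114 and adjusted p-values of 1 and 0.302. It marked 1.13% of the genes it tested. The part of these cells in the levels of the binding proteins was not tested.

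For 3 of the 10 genes the most similar profiles were sought among 8025 genes, by the root mean square distance of log2 values centred on their mean over the 6 libraries. For Igf1 they were Dnal1, Nectin3 and Jcad, at distances of 0.099, 0.103 and 0.111, against a median of 0.362 over all candidates. For Igf2bp2 they included Slc35a5 and Aprt, at 0.0267 and 0.0348, against a median of 0.265. For Igfbp5 they were Fos, Igfbp4 and Fbln1, at 0.129, 0.150 and 0.151, against a median of 0.358. These likenesses are descriptions over 6 libraries on FPKM as deposited, not rescaled, so the scale of L7 replicate 3 enters each of them. The nearest profiles lie below the median by how they were picked, so the medians give only the scale of the distances.

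Since Igfbp4 was the second nearest profile to Igfbp5, the promoters of both are shown, from RefSeq on GRCm38.p6, from 250 bases before to 50 bases after the start. The Igfbp4 window is chr11:99040994-99041293 on the plus strand, and the Igfbp5 window is chr1:72874816-72875115 on the minus strand. Capitals mark TATAAA, the letters of a TATA box.
Igfbp4: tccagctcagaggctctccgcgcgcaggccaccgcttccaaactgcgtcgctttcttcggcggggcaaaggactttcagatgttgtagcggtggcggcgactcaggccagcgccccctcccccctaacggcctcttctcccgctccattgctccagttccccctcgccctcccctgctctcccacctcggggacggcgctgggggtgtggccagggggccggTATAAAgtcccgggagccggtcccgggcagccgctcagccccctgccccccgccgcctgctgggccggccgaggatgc
Igfbp5: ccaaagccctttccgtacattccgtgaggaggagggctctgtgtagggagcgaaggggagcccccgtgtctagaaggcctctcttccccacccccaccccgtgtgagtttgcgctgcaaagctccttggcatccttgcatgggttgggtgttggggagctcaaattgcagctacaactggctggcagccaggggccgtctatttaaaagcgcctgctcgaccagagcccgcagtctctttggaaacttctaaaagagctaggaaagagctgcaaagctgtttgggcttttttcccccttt
TATAAA was searched on both strands and is present in 13.6% of 32851 windows of this length. Among the 10 genes it occurs in Igfbp4, where it begins 28 bases before the start, and, on the opposite strand, in Igfbp6. CAGCTG, an E box of the kind that myogenic factors bind, is present in 16.3% of the windows and among the 10 genes in that of Igf1 only. The Igfbp4 window is 71.3% G and C with 27 CpG dinucleotides, and the Igfbp5 window is 56.3% G and C with 10. The median over all windows is 52.7% and 7. By their mm10 coordinates above, Igfbp5 and Igfbp2 are convergent neighbours on chromosome 1. Igfbp2 was highest in L7 replicate 1 and Igfbp5 in L7 replicate 2.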

How the data were processed

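RNA was measured in 3 L7 and 3 control libraries after poly-T selection, per the labels. The deposited FPKM table was made by the authors. The submitters' processing notes name mm10, DESeq 1.12.0, HISAT2 2.0.4, Bowtie2 2.2.3 and TopHat2 2.0.12, without roles. The authors' deposited comparison table holds, per the file headers, a normalised signal (reads over size factors) per group, log2 fold changes and p-values. The sources used here do not state the strandedness of the counting. Symbols and mm10 coordinates came from GENCODE M21, matched by Ensembl identifier, for 51633 of 52369 genes.

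FPKM steps and the deposited group means gave back the reads, with all 152096 values that were not 0 within 0.05 of whole reads. In R 4.3.3, limma 3.58.1 with trended variances and group as the single factor was run on log2(FPKM + 1) over the 14788 genes with a mean of at least 1 FPKM, two-sided, with Benjamini-Hochberg adjustment over all of them and a threshold of 0.05. The pseudocount understates changes of low genes. Ratios had exact permutation tests. Alternatives were a pseudocount of 0.1, no filter, median of ratios scaling, array weights, a replicate block, a sex covariate, voom on the recovered reads and each library left out. On simulated reads limma was checked for the changes put in. Python 3.11.15 served for tables, with numpy 2.4.6, pandas 2.3.3 and statsmodels 0.14.6, and matplotlib 3.10.9 for plots.

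The 10 genes and the lists were chosen with earlier results of these data known. The text names, of each pathway list, the 2 genes of smallest unadjusted p, of each marker list the gene of highest mean FPKM, and the nearest 3 profiles with a symbol and a mean of at least 10 FPKM. Gm20544, Irs2, Rptor, Adipoq, Plin1, Cfd, Lep, Cidec and the genes with a miR-125b site were named after their values were seen. So were the fibro-adipogenic progenitor markers other than Col3a1. Some genes that the rule names are not reported here.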

Additional observations from a re-analysis of the deposited data

How the results depend on the processing

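None of the 10 IGF genes, and none of the 54 other pathway genes tested, passed limma under any of 14 alternatives, 13 planned and 1 added after the data were seen. Genes passing limma overall numbered 0 on all 6 libraries (873 at an unadjusted p under 0.05), 3 with array weights (Gm20544 and Novel00250 among them), 0 to 1 on leaving out each library (Gm5559 without L7 replicate 1) and 1 on rescaled FPKM without L7 replicate 3. The genes given here were named after their values were seen. With the replicate block 0 genes passed, 1178 had an unadjusted p under 0.05, and the median of the 10 IGF genes stayed at -0.07. Correlations of same-numbered deviations were 0.322, -0.0652 and 0.0871, and those of differently numbered ones ran from -0.346 to 0.22. With so few libraries these values cannot tell whether the replicate numbers pair the samples.

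Of 140 log2 differences of the 10 genes over the alternatives, 119 kept their sign and 21 turned. The fit without a filter and the replicate block leave every difference as it was, so no sign could turn in them. The other alternatives reuse the same libraries, so these counts are not independent checks. On FPKM rescaled by the median of ratios Igf2r was at 0.0801, Igfbp3 at 0.050 and Igfbp7 at 0.130, and with voom they were at 0.0684, 0.0522 and 0.136. With array weights Igf2r was at 0.105 and Igfbp6 at -0.354, and with the sex covariate Igfbp6 was at -0.221. On rescaled FPKM without L7 replicate 3, Igf1 was at 0.0191, Igf1r at 0.00423, Igf2r at 0.211 and Igfbp6 at -0.358. On leaving out each library in turn Igf2r ranged from -0.238 to 0.180, Igfbp3 from -0.343 to 0.0631, Igfbp4 from -0.154 to 0.165, Igfbp5 from -0.045 to 0.369 and Igfbp6 from -0.389 to 0.637. The cause of these turns was not tested. Igfbp2 was higher and Igf2bp2 lower in L7 under all 14 alternatives, Igfbp2 from 0.108 to 0.671 and Igf2bp2 from -0.580 to -0.0505. The adjusted p of Igfbp2 ranged from 0.350 to 0.873. With 3 libraries a group, the median standard error of the 10 differences was 0.251, which limits what size of change could be seen.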

Other observations

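The authors' deposited enrichment table holds 6 Gene Ontology terms that name the insulin-like growth factor. The term for regulation of its receptor signalling had p = 0.0286 and a corrected p of 0.502 in the authors' deposited table. Of the 268 annotated marked genes, 2 were among the 21 of that term in the authors' deposited table, AI464131, which was up, and Bmp2, which was down. The term for IGF binding had p = 0.289 and a corrected p of 1 in the authors' deposited table, from 1 marked gene, Ccn2, which was down. None of the 10 IGF genes was among the marked genes of these terms.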
